A study of Sorghum bicolor with 14 samples.

Results

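A set of 129 sorghum genes, out of 31337 in the authors' table, was dominant in the material collected 0 to 2 days after pollination (0-2 DAP). A gene belonged to the set when it had at least 20 TPM at 0-2 DAP and when its log2(TPM + 1) there was at least 2 above that of every other stage, which is a 4-fold margin on that scale. TPM is a read level corrected for gene length that sums to 1000000 in each stage. The 129 members made up 0.529% of the 24404 genes with 1 TPM or more in some stage, and 1.31% of the 9881 genes with 20 TPM or more at 0-2 DAP. The rule used the values of all 5 stages, so the levels and differences given here describe the genes it chose and carry no test.

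When pollen lands on a stigma it germinates, and its tube grows through the pistil to the ovule, where the sperm cells fuse with the egg cell and the central cell. In the days that follow, the zygote starts to develop and the endosperm begins as freely dividing nuclei, while the ovary wall and the integuments remain maternal tissue. A cereal pistil in these days can therefore hold maternal cells, pollen tubes and the beginnings of a seed, and the storage proteins and starch of the grain are laid down later.

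The study sequenced RNA of Sorghum bicolor M35-1 plants grown in an open field, at 5 stages with 14 libraries in the labels. The groups are pistils 1 to 2 days before pollination (1-2 DBP, 3 libraries), the 0-2 DAP material (3 libraries), and seeds at 10 DAP (3), 20 DAP (3) and 30 DAP (2). The 0-2 DAP libraries name pistil as source and seed as tissue, and no group carries a treatment or a genetic change. Only 1 TPM value was given for a gene at a stage and none for single libraries, so no spread between libraries is known and no difference between stages has a replicate check. Its gene IDs come without names, and 0 of them match an entry of the RefSeq gene table, so members are given by ID with no role and the tissue was not checked against marker genes. In whole organs, fewer cells of a type and less RNA per cell cannot be told apart. The sample numbers of 1-2 DBP and 0-2 DAP form a block apart from those of the later stages, so the step from 0-2 to 10 DAP and any difference in handling between these blocks cannot be told apart.

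The members together took 6.45% of all TPM at 0-2 DAP. Their share was 1.12% in the unpollinated pistil, and at the 3 seed stages it was 0.107%, 0.0414% and 0.0403% in order of age. The median of the members in stage order was 8.90, 81.6, 2.41, 0.784 and 0.196 TPM. Levels at 0-2 DAP ran from 20.1 to 13292 TPM: 47 members had under 50 TPM, 27 had 50 to 100, 30 had 100 to 500, 11 had 500 to 1000 and 14 had more. The summed level was concentrated in few genes, since the 15 most abundant members held 74.0% of it at 0-2 DAP and Sobic.003G172920 alone held 20.6%.

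**Figure D1:**
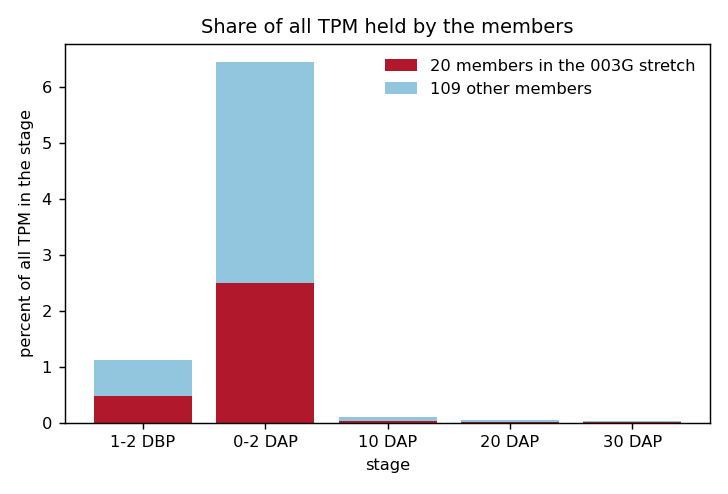
Percent of all TPM held by the members in each stage, as stacked bars, split into the 20 members of a stretch of neighbouring Sobic.003G IDs and the 109 other members. The total is 6.45% at 0-2 DAP and 1.12% at 1-2 DBP, and it is 0.107% or lower at the 3 later stages.

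All 129 members were by rule at least 4-fold higher at 0-2 DAP than in each other stage on the log2(TPM + 1) scale. Of the 24404 genes with 1 TPM or more in a stage, 2.22% were that much higher than in the unpollinated pistil, and 11.5%, 24.2% and 41% were so against the seed stages in order of age. Among the 9881 genes with 20 TPM or more at 0-2 DAP the shares were 2.6%, 17.1%, 36.4% and 59.8%. The difference from the unpollinated pistil was thus the condition that the fewest genes met. The median log2 difference of the members was 2.53 over 1-2 DBP, against 0.02 for the 24404 genes.

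Members differed widely in how much of their transcript was already listed before pollination. In the unpollinated pistil 22 members had 100 TPM or more, 25 had 20 to 100, 38 had 5 to 20, 26 had 1 to 5 and 18 had less than 1 TPM. The 22 with 100 TPM or more before pollination had 483 to 13292 TPM after it. The 18 with less than 1 TPM before pollination had 20.1 to 245 TPM after it. The margin of the rule forces members with a high level before pollination to a higher one after it, so the order of these ranges is not a finding.

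**Figure D2:**
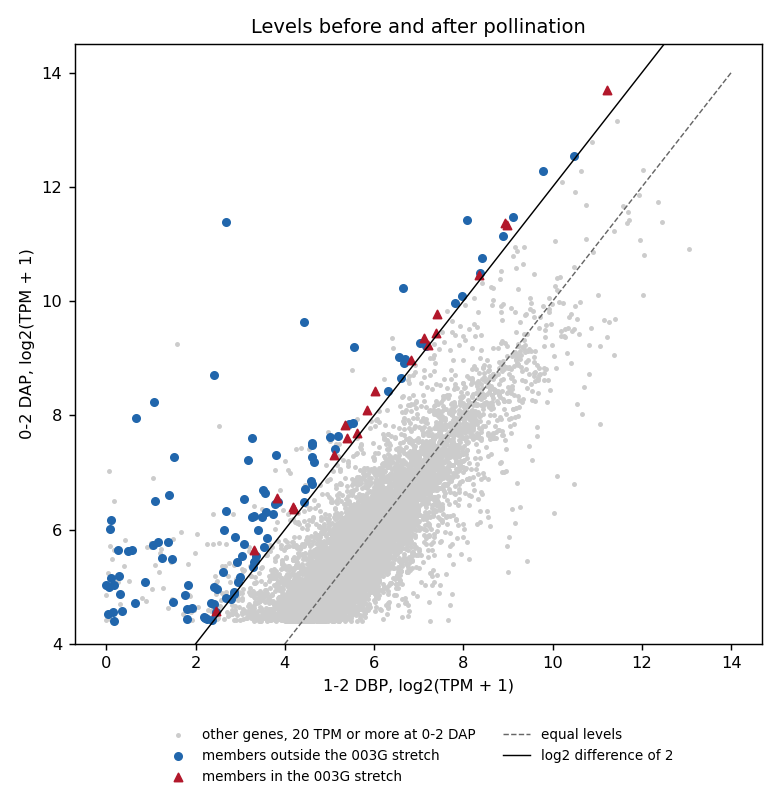
Each point is a gene with 20 TPM or more at 0-2 DAP, placed by log2(TPM + 1) at 1-2 DBP (x axis) and at 0-2 DAP (y axis); the dashed line marks equal levels and the solid line a log2 difference of 2. Members lie on or above the solid line by rule, many of them close to it, with a scattered group near 0 on the x axis; grey points above the line are genes that were too high at a later stage to be members.

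The 15 most abundant members were listed at high levels before pollination as well, apart from Sobic.004G180301 with 5.42 TPM at 1-2 DBP. In the order of the 5 stages, Sobic.003G172920 had 2384, 13292, 51.5, 15.7 and 43.4 TPM. Sobic.002G044500 had 1430, 5939, 3.64, 4.54 and 10.2 TPM, and Sobic.004G337132 had 879, 4942, 0.477, 0 and 0.396 TPM. The last was below 1 TPM in every seed stage, while the first had more than 10 TPM in each. Sobic.010G121800 had 556, 2837, 0, 0.0201 and 0 TPM. Sobic.001G200801 had 271, 2751, 88.1, 15.1 and 0 TPM, lower at every later stage. Sobic.007G207100 had 476, 2259, 15.1, 11.9 and 65.6 TPM, the highest value of any member at 30 DAP.

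Sobic.004G061100 had 343, 1722, 3.43, 1.09 and 1.60 TPM. Sobic.002G288750 had 333, 1434, 2.43, 0.904 and 4.36 TPM, and Sobic.001G202800 had 98.6, 1204, 5.72, 11.6 and 21.8 TPM. The last of these was lowest at 10 DAP and higher at each stage after it. Sobic.003G166400 had 250, 1084, 1.25, 0.174 and 8.51 TPM, and Sobic.K026497 had 224, 996, 0.0698, 0.293 and 0.759 TPM. The remaining 4 of the 15 are Sobic.004G180301, given with the widest margins, and 3 IDs of the Sobic.003G stretch, Sobic.003G172918, Sobic.003G173266 and Sobic.003G168512. Among the 15, 12 had a TPM ratio of 0-2 DAP to 1-2 DBP between 4.15 and 5.62. The exceptions were Sobic.001G200801 at 10.2, Sobic.001G202800 at 12.2 and Sobic.004G180301 at 492. The rule allows no ratio under about 4 at these levels.

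Sobic.004G180301 had the widest margin. It had 5.42, 2667, 0.878, 3.08 and 16.6 TPM, a log2 margin of 7.25 over 30 DAP, its next highest stage. Sobic.010G017600 had 1.08, 301, 0.530, 0.379 and 0.0557 TPM, a margin of 7.18. Sobic.003G285200 had 4.33, 416, 0.575, 0.139 and 0.196 TPM, a margin of 6.29. These 3 stood apart from the other members, of which 2 more passed a margin of 5, namely Sobic.008G010500 at 5.27 and Sobic.001G045800 at 5.03. In all, 69 members had a margin under 2.5, 24 had 2.5 to 3, 18 had 3 to 4, 13 had 4 to 5 and 5 had more.

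A group of 9 members had less than 1 TPM in all 4 other stages. Sobic.008G010500 was the highest of them at 0-2 DAP, with 0.0509, 63.2, 0.247, 0.665 and 0 TPM. Sobic.K008640 had 0.216, 35.5, 0, 0 and 0.0663 TPM, and Sobic.002G203700 had 0.829, 33.0, 0.147, 0 and 0 TPM. Sobic.001G045800 was listed at 0 in the unpollinated pistil and had 31.9 TPM at 0-2 DAP, then 0, 0.00702 and 0 TPM. Sobic.008G061202 had 0.0424, 31.0, 0, 0.158 and 0.516 TPM, and Sobic.K013248 had 0.227 and 28.3 TPM and then 0 in each seed stage. All of these had at least 28 TPM at 0-2 DAP. The other 3, Sobic.005G088100, Sobic.001G466000 and Sobic.005G217710, had 22.5, 21.9 and 20.1 TPM there, close to the lower limit of the rule. The number of reads behind values this far below 1 TPM is not known here. The share of all genes below 1 TPM in these 4 stages was not computed, so nothing is read from the count of 9.

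Of the 18 members below 1 TPM before pollination, 5 had 1 TPM or more at 10 DAP. Sobic.010G023600 was the highest of the 18 at 0-2 DAP, with 0.577, 245, 23.8, 6.61 and 0.867 TPM. Sobic.002G058100 had 0.0765, 71.3, 14.7, 0.0242 and 0 TPM. Sobic.009G181700 had 0.499, 49.2, 4.57, 3.13 and 0.0191 TPM. In these 3 genes the value was lower at each stage after 0-2 DAP. Sobic.004G255000 had 0.0804, 34.5, 2.41, 3.25 and 0 TPM, and Sobic.010G052700 had 0.119, 31.9, 3.78, 2.70 and 4.49 TPM, and both had 1 TPM or more at 20 DAP. At 30 DAP, 16 of the 18 were below 1 TPM. Of all 31337 genes, 20746 had 1 TPM or more at 10 DAP and 15868 at 30 DAP. The shares among genes below 1 TPM before pollination were not computed, so nothing is read from these counts.

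The stage with the second highest value divides the members into 4 groups. For 96 of the 129 (74.4%) it was 1-2 DBP. For 16 (12.4%) it was 10 DAP, for 12 (9.30%) 20 DAP and for 5 (3.88%) 30 DAP. The median margin was 2.37 in the first group, 2.47 in the second, 3.44 in the third and 4.34 in the fourth. For most members the second highest value was thus in the unpollinated pistil and not in the seed. How many of all genes have 1-2 DBP second highest was not computed. Over genes with 1 TPM or more in a stage, the median log2 difference of 0-2 DAP over 1-2 DBP was 0.02. Over the seed stages it was 0.72, 1.21 and 1.64 in order of age. Nothing particular to the members is therefore read from the 74.4%. Group sizes also depend on scaling: under median-ratio scaling 51 of the 71 genes then chosen had 1-2 DBP next.

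**Figure D3:**
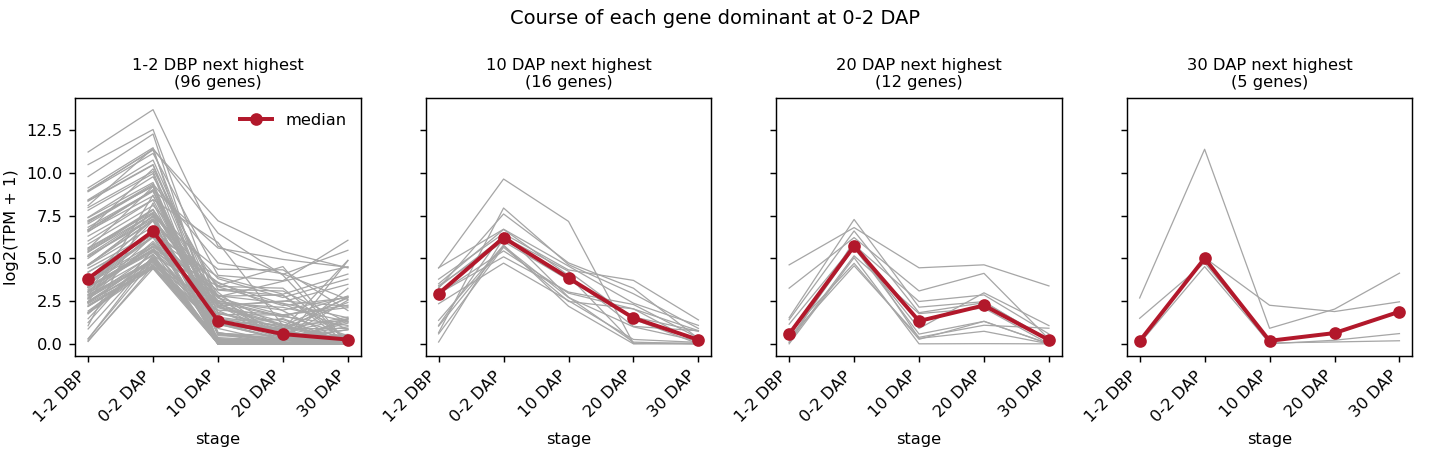
Each grey line is a member, drawn as log2(TPM + 1) over the 5 stages, in 4 panels by the stage with its second highest value; the red line is the median of the panel. The 96 genes of the first panel are listed in the pistil before pollination and mostly low by 10 DAP, whereas the median of the 16 in the second panel steps down over 10 and 20 DAP.

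Among the 16 members with 10 DAP next, Sobic.005G064400 had the highest value at that stage, with 20.7, 797, 142, 0.0120 and 0.0317 TPM. Sobic.002G399700 had 8.57, 193, 25.6, 8.53 and 0.240 TPM. Sobic.001G478100 had 20.8, 103, 22.4, 4.2 and 1.11 TPM, so its levels before pollination and at 10 DAP were nearly equal. Sobic.001G464000 had 12.8, 86.4, 19.0, 12.1 and 1.64 TPM. The fifth, Sobic.010G023600, was given above. These 5 were all lower at 20 than at 10 DAP and lower again at 30 DAP, apart from Sobic.005G064400, which was already near 0 at 20 DAP.

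Among the 12 with 20 DAP next, Sobic.005G022500 had the highest value at that stage, with 23.6, 110, 20.8, 23.6 and 9.46 TPM. Sobic.001G225500 had 8.56, 73.3, 7.54, 16.4 and 0.212 TPM. Sobic.010G211900 had 0.190, 49.0, 0.864, 6.91 and 1.09 TPM, and Sobic.008G191300 had 1.22, 54.0, 4.57, 6.26 and 0.492 TPM. Both had more at 20 DAP than at 10 or 30 DAP. Sobic.003G083000, with 154 TPM at 0-2 DAP, is given with its neighbour.

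Of the 5 members with 30 DAP next, only Sobic.004G180301 and Sobic.010G052700 had more than 4 TPM at 30 DAP. Sobic.001G291500 had 1.82, 25.7, 0.130, 0.547 and 2.68 TPM. Sobic.008G061202 and Sobic.001G466000 had 0.516 and 0.133 TPM at 30 DAP, so their place in this group rests on values below 1 TPM.

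After 0-2 DAP the values of 52 members were lower at each following stage, and 35 members had less than 1 TPM at 10, 20 and 30 DAP alike. The median over all genes of the table was also lower at each stage, with 7.12, 4.16, 2.52 and 1.07 TPM from 0-2 to 30 DAP. The shares of all genes with the courses counted in this paragraph were not computed, so nothing is read from these counts. In 5 members the 3 seed stages were all listed at 0: Sobic.004G337851, with 129 TPM before pollination and 615 TPM after it, Sobic.008G181701, Sobic.K013248, Sobic.K021827 and Sobic.005G217710. At the other end, 25 members had 1 TPM or more in all 5 stages. Among these Sobic.006G231500 had 92.7, 519, 47.6, 29.7 and 21.3 TPM, the highest value of any member outside the Sobic.003G stretch at 20 DAP. A value listed at 0 does not show absence, since the number of reads behind it is not known here.

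Compared with 1-2 DBP, 67 members were at least 2-fold lower and 10 at least 2-fold higher at 10 DAP. Of the 24404 genes, 40.3% were lower and 12.8% higher; of the 9881 with 20 TPM or more at 0-2 DAP, 52.3% were lower and 4.86% higher. Between 10 and 20 DAP, 33 members were 2-fold lower and 5 higher, against 18.8% and 4.23% of the 24404 genes and 20.8% and 1.27% of the 9881. Between 20 and 30 DAP, 33 members were 2-fold lower and 18 higher, against 28.2% and 9.03% of the 24404 and 37.7% and 7.12% of the 9881. The rule holds all of these values about 4-fold below the 0-2 DAP level, so nothing is read from the shares. The median log2 differences of the members were -1.23, -0.37 and -0.08, against -0.73, -0.47 and -0.42 for the 24404 genes. The log2(TPM + 1) scale shrinks steps between low values. The median of the members was 0.784 TPM at 20 DAP and 0.196 TPM at 30 DAP, against 5.06 and 2.60 TPM for the 24404 genes. The small late differences therefore do not show that the TPM of the members stayed level.

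The later courses of the 129 fall into 8 kinds when each step counts as higher, lower or within 2-fold on the log2(TPM + 1) scale. In 57 members both steps were within 2-fold, and 21 were lower at 20 DAP with no further 2-fold step. The 57 include the 35 members with less than 1 TPM at 10, 20 and 30 DAP alike. Values below 1 TPM cannot be 2-fold apart on this scale, so the place of those 35 was fixed in advance, however their TPM differed. Another 20 were within 2-fold between 10 and 20 DAP and lower at 30 DAP, and 9 were lower at both steps. A 2-fold higher value at 30 than at 20 DAP was seen in 18 members. In 14 of them 10 and 20 DAP were within 2-fold, in 3 the value at 20 DAP was lower than at 10 DAP, and in Sobic.004G180301 both steps were upward. The 3 that were 2-fold lower at 20 than at 10 DAP and 2-fold higher again at 30 DAP are all in the Sobic.003G stretch: Sobic.003G172902, Sobic.003G172904 and Sobic.003G172920. The last kind holds 4 members that were higher at 20 than at 10 DAP and lower at 30 DAP, Sobic.001G225500, Sobic.001G538200, Sobic.003G384301 and Sobic.010G211900.

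A fixed rule chose 58 members whose values are printed here: the most abundant, the widest margins, the side-by-side IDs and the 5 highest of each next-stage group. The other 71 had 20.1 to 615 TPM at 0-2 DAP, with a median of 52.0 TPM, and 0.0765 to 143 TPM at 1-2 DBP, and they are described by their later course. Of these, 56 had 1-2 DBP next. In the largest group of them, 31 genes, each of the steps from 10 to 20 and from 20 to 30 DAP was within 2-fold on the log2(TPM + 1) scale, though both together could exceed it. It includes 9 genes with 114 to 615 TPM at 0-2 DAP: Sobic.001G251050, Sobic.004G087000, Sobic.004G166801, Sobic.004G337851, Sobic.005G118700, Sobic.006G231500, Sobic.007G068300, Sobic.007G109200 and Sobic.010G233100. These had 22.9 to 143 TPM before pollination. It also includes 7 genes with 20.1 to 92 TPM at 0-2 DAP and at most 0.869 TPM at any later stage, among them Sobic.002G003200, Sobic.006G228200, Sobic.001G396600, Sobic.009G150000 and Sobic.010G225350. Steps between values below 1 TPM are always within 2-fold on that scale. A further 10 with 20.6 to 88.5 TPM kept 1.18 to 6.04 TPM at 10 DAP. These are Sobic.003G179201, Sobic.003G286500, Sobic.006G157700, Sobic.007G050650, Sobic.007G175200, Sobic.008G060400, Sobic.008G072050, Sobic.009G033400, Sobic.009G144600 and Sobic.010G174900. The last 5 of the 31 have K IDs and are given with those.

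Another 8 of the 56 had 1.66 to 59.9 TPM at 10 DAP and 1.11 TPM or less at 20 DAP. Of these, Sobic.003G385500 had 77.8, 344, 59.9, 1.11 and 0.160 TPM, and Sobic.004G195400 had 42.6, 228, 5.83, 0 and 0 TPM. Both had more than 5 TPM at 10 DAP and little or none at 20 DAP. The other 6 are Sobic.001G170700, Sobic.001G505400, Sobic.002G393900, Sobic.003G142100, Sobic.010G213800 and Sobic.010G224800. A further 8 had 1.45 to 19.1 TPM at 20 DAP and 2.86 TPM or less at 30 DAP, of which Sobic.007G210500 was the highest, with 33.6, 170, 19.6, 19.1 and 2.86 TPM. With it go Sobic.001G225300, Sobic.001G535400, Sobic.003G148400, Sobic.003G341900, Sobic.004G230900, Sobic.005G222900 and Sobic.007G110233. In 5 more the value was 1.08 TPM or less at 20 DAP and 1.67 to 28.1 TPM at 30 DAP. Sobic.001G261455 was the highest of these at 30 DAP, with 102, 504, 0, 0.0328 and 28.1 TPM, and the others are Sobic.003G172701, Sobic.003G249050, Sobic.006G124775 and Sobic.K021701. Sobic.002G202700, Sobic.004G187000 and Sobic.009G250100 were lower at both steps. Sobic.001G538200 had 23.2, 181, 9.56, 21.9 and 0 TPM, so its levels before pollination and at 20 DAP were close.

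Of the other members with 10 DAP next, 7 had 3.59 to 15 TPM at 10 DAP and 1.98 TPM or less at 20 DAP: Sobic.001G403100, Sobic.002G058100, Sobic.002G093600, Sobic.003G274000, Sobic.005G154000, Sobic.006G009100 and Sobic.009G227600. Sobic.008G159100 and Sobic.009G181700 were within 2-fold between 10 and 20 DAP and had 0.273 and 0.0191 TPM at 30 DAP. Sobic.009G088700 had 8.97, 74.9, 18, 1.72 and 0 TPM. Of those with 20 DAP next, Sobic.004G255000, Sobic.009G115500 and Sobic.010G028501 had 1.49 to 4.30 TPM at 20 DAP and 0.204 TPM or less at 30 DAP. Sobic.003G384301 had 0.200 TPM at 10 DAP but 1.49 TPM at 20 DAP, whereas Sobic.002G327900 had 1.13 and 0.882 TPM at 20 and 30 DAP.

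Some members stand side by side when the IDs of the table are sorted. Sorghum IDs with a chromosome number count the genes along that chromosome, so such IDs are neighbours in ID order. Whether an ID that is not in the table lies between them is not known here. K IDs carry no chromosome number, so Sobic.K013248 and Sobic.K013824, counted here as a pair, are next to each other in the sorted IDs only. The 129 members form 16 such pairs, in 12 runs of up to 4 IDs, and 28 members (21.7%) have a member next to them. In the sets chosen by the same rule for the other stages the share was 6.31% of 111 genes for 1-2 DBP, and 9.60% of 125, 13.2% of 38 and 8.93% of 291 for the seed stages in order of age. Of the 16 pairs, 11 lie in a stretch of Sobic.003G IDs, and without that stretch 10 of 109 members (9.17%) have a member next to them. The differences between these shares were not tested. How the authors counted reads that match several genes is not given in the sources used here, so neighbours that are copies of each other could share reads.

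Outside the stretch there are 5 side-by-side pairs. Sobic.003G083000 had 1.88, 154, 3.42, 4.54 and 0.135 TPM, and its neighbour Sobic.003G083200 had 10.9, 77.7, 6.27, 0.956 and 0.345 TPM. The second was higher than the first before pollination, at 10 and at 30 DAP, and lower at 0-2 and 20 DAP. Sobic.008G181600 had 31.0, 196, 0.237, 0.0286 and 0 TPM, and Sobic.008G181701 had 13.0, 156, 0, 0 and 0 TPM. Both members of this pair were listed on both sides of pollination and below 1 TPM in every seed stage.

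Sobic.010G023500 had 8.06, 147, 5.51, 0.315 and 0 TPM, next to Sobic.010G023600 whose values on either side of pollination were 0.577 and 245 TPM. The pair was similar at 0-2 DAP and differed before pollination and at 10 DAP. Sobic.010G046601 had 6.65, 42.3, 6.80, 3.11 and 0.707 TPM, and Sobic.010G046700 had 10.8, 98.6, 10.7, 4.02 and 0.812 TPM. These were the most alike of the 16 pairs in course, each with nearly the same value at 1-2 DBP and at 10 DAP. Sobic.K013248 was described above, and Sobic.K013824 had 5.15, 37.1, 0, 0.0257 and 0 TPM. As a description over 5 stage columns, Pearson's r of log2(TPM + 1) within a pair ran from 0.780 to 1.000 outside the stretch and from 0.904 to 0.999 inside it. All pairs share the peak that the rule demands, so a high r is partly built in.

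In 4 further places a single ID stands between members. Sobic.001G225400, between Sobic.001G225300 and Sobic.001G225500, had 7.36, 37.7, 3.35, 9.80 and 0.111 TPM and a margin of 1.84, just short of the rule. The outer 2 had 20.5 and 73.3 TPM at 0-2 DAP, and all 3 had more at 20 DAP than at 10 or 30 DAP. The other 3 places are in the Sobic.003G stretch, and the IDs between had margins of 1.5 to 1.68.

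The stretch runs from Sobic.003G168500 to Sobic.003G173266 and was marked out after its values were seen. It holds 69 IDs of the table, of which 20 are members, 7 of the 12 runs and 11 of the 16 pairs. A total of 33 members have Sobic.003G IDs, or 2.21% of the 1495 such genes with 20 TPM or more at 0-2 DAP. Over all 9881 genes at that level the share was 1.31%. For the other numbered chromosomes it ran from 0.559% for Sobic.006G to 1.85% for Sobic.005G. Of the 33, 20 are those of the stretch and 13 lie outside it. Within the stretch 56 of the 69 IDs had their highest value at 0-2 DAP, 8 at 10 DAP and 5 at 1-2 DBP. The share peaking at 0-2 DAP was thus 81.2%, against 35.9% of the 24404 genes and 44.2% of the 9881 with 20 TPM or more there, for a stretch chosen on these values. What these loci are is not known here, and whether the reads came from them or from near-identical sequence elsewhere in the cell was not tested, which bears on the 38.7% of the members' TPM at 0-2 DAP that the 20 hold. In stage order the 20 members held 0.477%, 2.5%, 0.0288%, 0.0109% and 0.0163% of all TPM.

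The 20 members of the stretch spanned a narrow range in the ratio of 0-2 DAP to 1-2 DBP and a wide one in level. Their levels at 0-2 DAP ran from 22.9 to 13292 TPM with a median of 307 TPM. Their TPM ratio to 1-2 DBP ran from 4.06 to 7.05 with a median of 4.87, and 19 of the 20 lay between 4 and 6. The 76 members elsewhere that also had 1-2 DBP next had ratios from 4.13 to 279, with a median of 6.0, and 37 of the 76 lay between 4 and 6. The rule sets the lower end of both ranges and leaves the upper end free. The 20 were also higher before pollination, with a median of 59.9 TPM at 1-2 DBP against 6.97 TPM for the 109 members elsewhere. Members elsewhere with 100 TPM or more at 1-2 DBP had ratios from 4.13 to 5.62, apart from Sobic.001G200801 at 10.2. The narrow range is therefore not particular to the stretch.

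**Figure D4:**
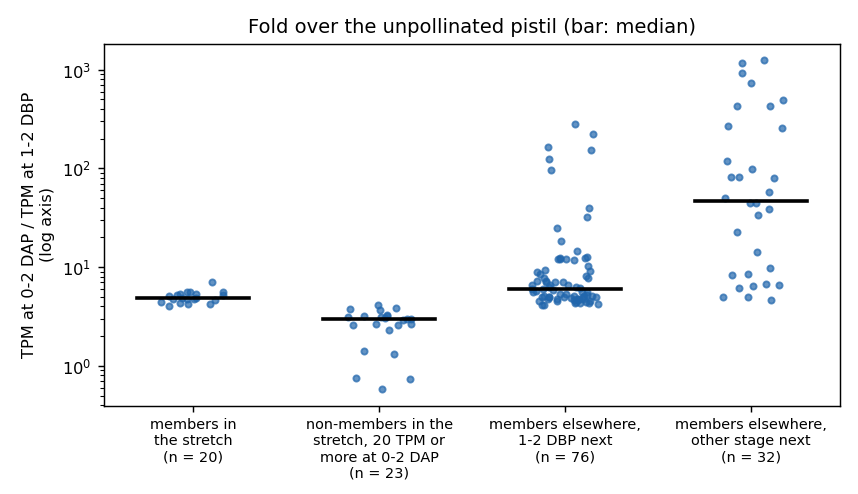
TPM at 0-2 DAP divided by TPM at 1-2 DBP on a log axis, one point per gene, with a bar at the median, for members and non-members of the Sobic.003G stretch and for members elsewhere by next stage. The 20 members of the stretch lie between 4.06 and 7.05, and the members elsewhere spread to above 1000; Sobic.001G045800, listed at 0 before pollination, has no ratio and is left out.

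The first members of the stretch are Sobic.003G168502, with 138, 652, 25.6, 16.1 and 5.04 TPM, and Sobic.003G168504, with 168, 876, 8.10, 7.52 and 1.39 TPM. Both kept 1 TPM or more in every seed stage. The run of 3 that follows differs in level by a wide margin. Sobic.003G168508 had 4.53, 22.9, 0.166, 0 and 0 TPM, Sobic.003G168510 had 8.86, 49.2, 0.287, 0.125 and 0 TPM, and Sobic.003G168512 had 324, 1404, 1.36, 0.211 and 1.31 TPM. Sobic.003G168702 had 165, 692, 0.466, 0.163 and 0.394 TPM, and its neighbour Sobic.003G168900 had 17.5, 81.6, 0, 0.193 and 0.467 TPM. Sobic.003G169106 had 39.8, 225, 3.68, 4.69 and 3.58 TPM, and Sobic.003G169108 had 63.8, 341, 1.29, 0.718 and 5.71 TPM. In 14 of the 20 members the value at 30 DAP was above that at 20 DAP, and over all 129 members this was so in 45. Among the 14, Sobic.003G168702 and Sobic.003G168900 were below 1 TPM at both stages. The share of all genes with a higher value at 30 DAP was not computed, so nothing is read from this count.

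Further along, the members resume with Sobic.003G172701, which had 112, 499, 0.393, 0.264 and 4.87 TPM. The longest run, of 4 IDs, goes from Sobic.003G172900 to Sobic.003G172906. Sobic.003G172900 had 48.1, 206, 4.37, 1.96 and 5.96 TPM. Sobic.003G172902 had 56.0, 272, 13.1, 5.54 and 12.9 TPM, and Sobic.003G172904 had 17.2, 83.7, 14.1, 6.48 and 15.9 TPM. In both the values at 10 and 30 DAP were about equal and that at 20 DAP was lower. Sobic.003G172906 had 13.2, 92.8, 0.204, 0.207 and 1.47 TPM and the highest ratio of the 20, at 7.05.

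After this run come 5 IDs with another course, Sobic.003G172908 to Sobic.003G172916. They had 7.21 to 17.8 TPM at 0-2 DAP and were highest at 10 DAP, where they ran from 150 TPM for Sobic.003G172908 to 501 TPM for Sobic.003G172914. The next run of members begins directly behind them. Sobic.003G172918 had 491, 2650, 146, 41.0 and 20.7 TPM, which is the highest value of any member at 10 and at 20 DAP. Sobic.003G172920, the most abundant member, stands next to it, followed by Sobic.003G172922 with 147, 599, 1.38, 0.784 and 1.96 TPM. So in a row of 12 neighbouring IDs, members with a peak at 0-2 DAP stand on both sides of 5 genes with a peak at 10 DAP. The last members are Sobic.003G173032, with 40.8, 193, 9.11, 3.73 and 5.52 TPM, Sobic.003G173116, with 33.5, 158, 5.41, 2.23 and 3.79 TPM, and Sobic.003G173266, with 501, 2588, 1.69, 0.819 and 28.6 TPM. The last of these had the second highest value of the stretch's members at 30 DAP.

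**Figure D5:**
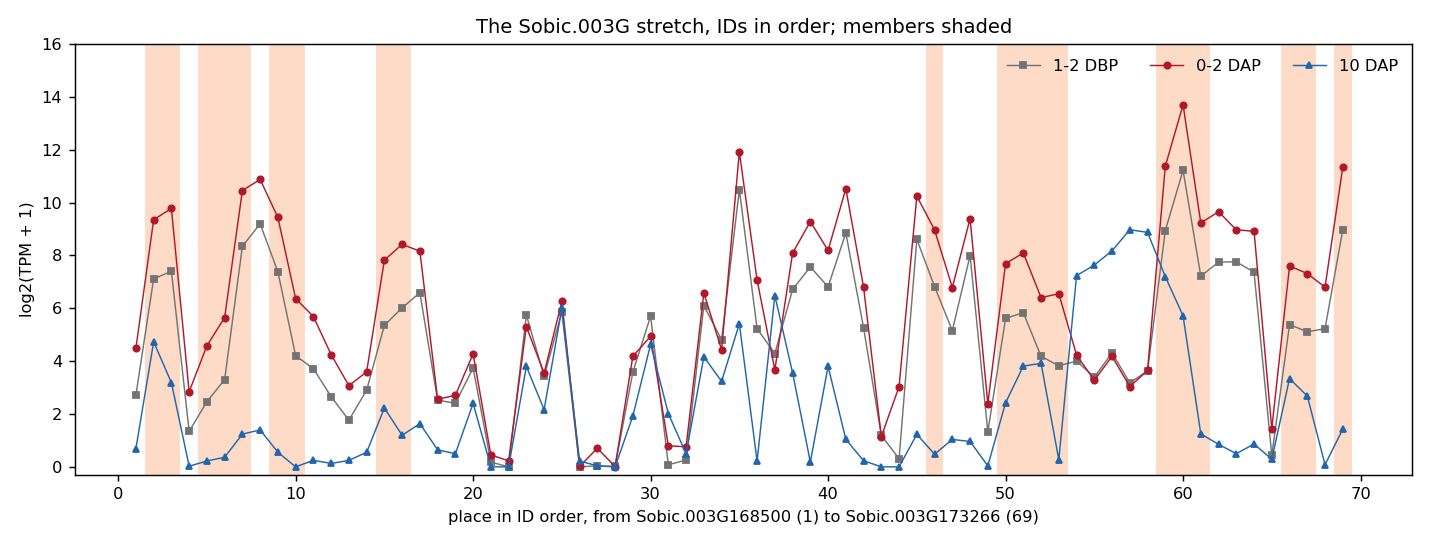
The 69 IDs of the Sobic.003G stretch in ID order (x axis) with log2(TPM + 1) at 1-2 DBP, 0-2 DAP and 10 DAP (y axis); members are shaded. The lines for 1-2 DBP and 0-2 DAP run in parallel over most of the members and over many IDs between them, and the 5 IDs at places 54 to 58 stand highest at 10 DAP.

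Many IDs of the stretch that are not members had a like course with a smaller step. The smaller step follows from the rule, which leaves out genes under its margin, so it is not a finding. Of its 49 non-members, 23 had 20 TPM or more at 0-2 DAP, and 18 of these had at least a 2-fold ratio to 1-2 DBP, from 2.32 to 4.17 with a median of 3.06. Sobic.003G171900 had 1438, 3858, 41.7, 33.7 and 78.7 TPM, Sobic.003G168700 had 586, 1877, 1.64, 0.389 and 0.993 TPM, and Sobic.003G172300 had 460, 1477, 1.06, 0.190 and 0.764 TPM. These 3, chosen after their values were seen, are more abundant than most members and miss the margin.

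The numbers in the IDs show a feature that the rule did not use. Most sorghum IDs end in a multiple of 100, and 39 of the 129 members (30.2%) do not. The share was 14.7% of all 31337 genes and 6.39% of the 9881 with 20 TPM or more at 0-2 DAP. It was 8.11% in the set dominant at 1-2 DBP, and 12%, 5.26% and 6.19% in those of the seed stages in order of age. The stretch holds 18 of the 39, and among the 109 members elsewhere 21 (19.3%) had such an ID. Of all 69 IDs of the stretch, members or not, 42 (60.9%) were of this kind. The 39 had a median of 198 TPM at 0-2 DAP and 35.3 TPM at 1-2 DBP, and the 80 members with a multiple of 100 had medians of 73.5 and 7.79 TPM. In 34 of the 39 and in 52 of the 80 the next stage was 1-2 DBP. The 18 in the stretch weigh on both contrasts. The 20 members of the stretch had medians of 307 TPM at 0-2 DAP and 59.9 TPM at 1-2 DBP, and all 20 had 1-2 DBP next. These shares were not tested, and the source of the irregular numbers is not given in the sources used here.

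Another 10 members (7.75%) have K IDs, which carry no chromosome number, against 0.906% of all genes and 0.516% of those with 20 TPM or more at 0-2 DAP. The 10 are 19.6% of the 51 K IDs with 20 TPM or more at 0-2 DAP, while the set dominant at 1-2 DBP held 2 K IDs (1.80%) and those of the 3 seed stages held 0. All 10 had 1-2 DBP next and less than 1 TPM at 10 DAP, and 8 of them had less than 1 TPM at every seed stage. Besides Sobic.K026497, Sobic.K008640, Sobic.K013248 and Sobic.K013824, the 5 members Sobic.K019585, Sobic.K021313, Sobic.K021827, Sobic.K022440 and Sobic.K023041 had 20.4 to 43.6 TPM at 0-2 DAP and 1.77 to 5.39 TPM before pollination. Sobic.K021701 had 6.21, 29.1, 0.125, 0.0750 and 1.67 TPM. At 0-2 DAP all K members but Sobic.K026497 were below the median of the 129 members, 81.6 TPM.

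The edges of the set are not gaps. Just inside the margin of 2 were Sobic.009G088700 at 2.00, Sobic.009G150000 at 2.01 and Sobic.003G172922 at 2.01. Just outside were Sobic.006G244400 at 2.00, with 77.0 TPM at 0-2 DAP, Sobic.K001152 at 1.99, with 109 TPM, and Sobic.003G169000 at 1.97, with 50.6 TPM. By level, Sobic.005G217710, Sobic.K021313 and Sobic.001G225300 were just inside with 20.1, 20.4 and 20.5 TPM, and Sobic.004G311000, Sobic.005G217655 and Sobic.007G068700 were just outside with 19.7, 19.6 and 19.5 TPM.

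Among non-members with 20 TPM or more at 0-2 DAP, the 5 genes whose course was most like the median course of the members had Pearson's r of 0.992 to 0.998 over the 5 stage columns. Sobic.002G140900 had 43.3, 101, 24.6, 20.5 and 15.7 TPM, and Sobic.002G229700 had 14.1, 52.3, 4.34, 3.20 and 1.46 TPM. The others were Sobic.010G009400, Sobic.009G190500 and Sobic.007G168500. They had the same order of stages with a smaller margin, from 1.14 to 1.82, and in each the lowest value was at 30 DAP.

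The margins depend on how the stage columns are scaled. Median-ratio factors, which align the bulk of genes between columns, were 1.88 for 1-2 DBP and 1.89 for 0-2 DAP, and 1.03, 0.673 and 0.411 for 10, 20 and 30 DAP. All 129 members were still highest at 0-2 DAP under quantile normalization and under median-ratio scaling. Under median-ratio scaling 71 of them met the full rule, since 35 were under 20 on the new scale and 38 under the margin of 2, some under both. The members and the levels given here are those of the table as deposited.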

How the data were processed

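RNA-seq libraries of 5 stages of Sorghum bicolor M35-1 were used, as 1 table. Its values are TPM made by the authors, per the file headers, in 5 stage columns; each deposited TPM column sums to 1000000, and how the libraries of a stage were combined is not given in the sources used here. Per the submitters' processing notes the tools were HISAT2, featureCounts 2.2.0 and DESeq2, without their roles. No genome build or annotation is given in the sources used here. Per the labels' protocols, RNA was total RNA, and the kits named are stranded.

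From the table, log2(TPM + 1) differences, counts, shares and ID neighbours were computed. Depth per library is unknown, so no interval is given, and with 1 value per stage no test was run. The members and lists were chosen with earlier results of these data known. Planned gene classes and marker lists rest on gene descriptions and were not used, since no ID matched the reference. Named members are the 15 most abundant, the 10 widest margins, side-by-side IDs, the 5 highest per next stage and the edges of the rule. The code was tested on simulated data. Python 3.11.15, numpy 2.4.6, pandas 2.3.3 and matplotlib 3.10.9 were used.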

Additional observations from a re-analysis of the deposited data

How the results depend on the processing

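Each alternative changed one choice, and values that moved by more than 1.5 times follow. Both scalings apply the 20 TPM limit to rescaled values. The set of 129 members shrank to 71 under median-ratio scaling, to 82 with a 50 TPM minimum and to 36 with a margin of 3, and grew to 257 with a margin of 1.5; 88 of the 129 were among the 133 genes chosen after quantile normalization, and 90 with a pseudocount of 5. The 16 side-by-side pairs became 9 with a pseudocount of 5, 36 with a margin of 1.5, 1 with a margin of 3 and 5 without the Sobic.003G stretch, an alternative chosen after seeing the data.

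The members' share of all TPM, in stage order, was 2.71%, 11.9%, 0.313%, 0.178% and 0.116% with a margin of 1.5, 0.0496%, 0.987%, 0.0175%, 0.00661% and 0.00436% with a margin of 3, and 3.58%, 23.0%, 0.211%, 0.142% and 0.164% after quantile normalization. It was 0.0571% at 10 DAP and 0.0226% at 20 DAP under median-ratio scaling. Without the stretch, as a share of the remaining TPM, it was 0.646% at 1-2 DBP, 4.11% at 0-2 DAP and 0.0240% at 30 DAP.

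Members with 1-2 DBP next numbered 51 under median-ratio scaling, 63 with a 50 TPM minimum, 201 with a margin of 1.5 and 20 with a margin of 3. Those with 10 DAP next numbered 9 with a pseudocount of 5 and under median-ratio scaling, 32 with a margin of 1.5 and 5 with a margin of 3. Those with 20 DAP next numbered 6 under median-ratio scaling and with a 50 TPM minimum. Those with 30 DAP next numbered 3 with a pseudocount of 5 and with a margin of 3, and 1 with a 50 TPM minimum.

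At 10 DAP against 1-2 DBP, 2-fold higher members numbered 3 with a pseudocount of 5, 6 under median-ratio scaling and 5 with a margin of 3, and lower members 43 with a pseudocount of 5, 149 with a margin of 1.5 and 9 with a margin of 3. At 20 against 10 DAP, higher members numbered 17 with a pseudocount of 0.1, 1 with 5, 8 with a 10 TPM minimum, 3 with a 50 TPM minimum, 12 with a margin of 1.5 and 2 with a margin of 3. Lower members numbered 58 with a pseudocount of 0.1, 12 with 5, 13 under median-ratio scaling, 20 after quantile normalization, 69 with a margin of 1.5 and 8 with a margin of 3. At 30 against 20 DAP, higher members numbered 6 with a pseudocount of 5, 53 after quantile normalization, 31 with a margin of 1.5, 1 with a margin of 3 and 10 without the stretch. Lower members numbered 59 with a pseudocount of 0.1, 6 with 5, 12 under median-ratio scaling, 21 after quantile normalization, 19 with a 50 TPM minimum, 77 with a margin of 1.5 and 10 with a margin of 3. The cause of these shifts was not tested.

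The other 89 recomputed counts and shares stayed within 1.5 times. Of 516 recomputed margins of single members, 161 shifted by over 1.5 times as a fold, and 0 changed sign. No paired analysis was possible because each stage has a single TPM column, and leaving out each replicate was not run for the same reason. Gene classes were not counted, as no ID matched a description. Values near 0 rest on an unknown number of reads.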
